A study of Apis mellifera with 4 samples.

Results

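This report describes 5 odorant receptor genes of the honey bee, AmOr042, AmOr063, AmOr081, AmOr099 and AmOr109, out of 313 genes and 168 odorant receptors measured on a custom array. They were selected on their measured sex ratio, since an earlier analysis of the same files found each of them higher in worker than in drone antennae on every array, and they lie outside the run of consecutively numbered worker receptors AmOr149 to AmOr151. That ratio is therefore given as a description with no test. Each receptor was measured by an oligonucleotide printed in 2 spots, 10 spots in all on each array.

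The series has 4 two-colour arrays of Apis mellifera antennae. Each array set 1 pool of mature drones (males) against 1 pool of workers (females), and every pool was collected separately at the hive entrance and held 50 sets of whole antennae, from which 20 µg of total RNA was labelled. No genotype or treatment is listed for either group, and no age in days is given in the labels. Whole antennae were pooled, so fewer cells of a type and less RNA per cell cannot be told apart in any value below.

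Insect odorant receptors are membrane proteins of olfactory sensory neurons. A given neuron usually makes a single tuning receptor together with the shared co-receptor, known in the honey bee as AmOr002, and the pair forms an odour-gated ion channel. Drones use their antennae chiefly to find queens by pheromone, whereas workers also forage and sense floral and colony odours. No odorant is named here for any of the 5 receptors.

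By the label fields, Cy3 carried the drone cDNA of arrays 1 and 3 and Cy5 that of arrays 2 and 4. Every direction below rests on this reading, save on array 1, where the written protocols give the same dye. The written protocols contradict the label fields for arrays 2, 3 and 4, and would leave the dye swap uneven, where the design text calls it even. Under those dyes the mean log2 drone over worker ratio of AmOr042 was 0.96 and that of AmOr081 0.33, both with the opposite sign, and limma called 0 of 313 genes in either direction (8 at an unadjusted p under 0.05). With the label-field dyes, the drone over worker ratios of the 6 pairs of arrays correlated across genes, which are not independent replicates, at Pearson's r of 0.393 to 0.775 and Spearman's rho of 0.042 to 0.628. The lowest r and rho belonged to arrays 3 and 4, which share slide 7, and rho was 0.053 for arrays 1 and 4. As markers of antennal tissue, AmOr002 and the sensory neuron membrane protein AmSNMP were above the negative controls on 4 of 4 arrays in both sexes. The 5 opsins, AmPteropsin among them, were taken as a group to mark tissue other than antenna. They had a summed signal of 172 to 2348 in drone and 357 to 2657.5 in worker. At most 1 of them was above the controls on any array in drone and at most 2 in worker.

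Signal is given as the spot's median brightness minus its local background, in scanner units and averaged over the 2 spots. A receptor was taken as above the negative controls on an array where this signal lay more than 2 SD above the mean of the negative controls in the same channel, leaving out control oligo 4, which was bright on every array. That threshold was 677, 58.7, 974 and 601 for drone on arrays 1 to 4, and 607, 80.5, 1376 and 563 for worker. Signals of drone and worker on an array carry different dyes and are not on a common scale until normalized. None of the 40 spot images, counting both spots on each array, had a saturated pixel or a quality flag.

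AmOr042 had the widest margin over the controls, in both sexes. Its worker signal was 5616, 1226.5, 8051.5 and 6474 on arrays 1 to 4, and its drone signal was 1603, 262, 2321.5 and 1641.5. Both sexes were above the negative controls on 4 of 4 arrays, with worker signal at 5.85 to 15.2 times its threshold and drone signal at 2.37 to 4.47 times. By this threshold AmOr042 was thus measurable in both sexes throughout, with worker the higher on every array. With oligo 4 kept among the controls, AmOr042 was above them in worker on 2 arrays and in drone on 0. After loess normalization its log2 drone over worker ratio was -2.01, -1.62, -1.31 and -2.91 on arrays 1 to 4. The mean of -1.96 ± 0.28 (SE, n = 4 arrays) equals a 3.90-fold higher worker level, and single arrays gave 2.47-fold to 7.53-fold.

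AmOr081 was above the controls in worker on all 4 arrays and in drone on array 2 alone. Its worker signal was 3038, 614, 1774 and 570.5 on arrays 1 to 4, against drone signals of 665.5, 59, 479.5 and 106. The array 2 drone signal exceeded its threshold by a factor of 1.01, and the array 4 worker signal also by a factor of 1.01, so both calls lie at the edge of the threshold. The log2 drone over worker ratio was -2.38, -2.05, -1.43 and -0.24 on arrays 1 to 4. The mean was -1.52 ± 0.35 (moderated SE, n = 4 arrays), and the ratio varied most among arrays of the 5 receptors, with an SD of 0.94. Without array 4 the mean log2 ratio was -1.95, and centring on housekeeping genes in place of loess gave -2.11. Because the drone signal was at or near the control level on most arrays, the fold is given only as a bound. The bound sets the mean worker level, after loess and quantile normalization of average intensities, against the mean of the higher, on each array, of the gene's own drone level and the lowest drone level above the controls. By it worker antennae had at least 1.87-fold more AmOr081 signal, or 3.19-fold without array 4. With oligo 4 kept among the controls the bound was 0.230, which gives no fold.

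AmOr063 was above the controls in worker on 3 of 4 arrays and in drone on none. Its worker signal was 819.5, 236, 1350 and 906, and its drone signal was 225.5, 28.5, 400 and 91 on arrays 1 to 4. On array 3 the worker signal reached 0.981 of its threshold. Because the drone signal was never above the controls, its fold is only a bound, computed as for AmOr081: worker antennae had at least 1.31-fold more AmOr063 signal. With oligo 4 kept among the controls this bound was 0.157, which gives no fold.

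AmOr109 was above the controls in worker on arrays 2 and 4 and in drone on none. Its worker signal was 408.5, 153.5, 1294.5 and 688.5 on arrays 1 to 4, against drone signals of 333.5, 19.5, 287 and 86.5. The 2 sexes were closest in raw signal on array 1. The bound on its fold was under 1, so no fold is given.

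AmOr099 was the least certain of the 5, above the controls in worker on array 2 alone and in drone on none. Its worker signal was 247, 207.5, 939 and 453.5 on arrays 1 to 4, against drone signals of 192, 18, 336 and 56. Its bound was also under 1. On array 2 its 2 spots also disagreed most of any pair among the 5 receptors, with worker signals of 301 and 114 and log2 drone over worker ratios of -1.51 and -0.51.

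**Figure D1:**
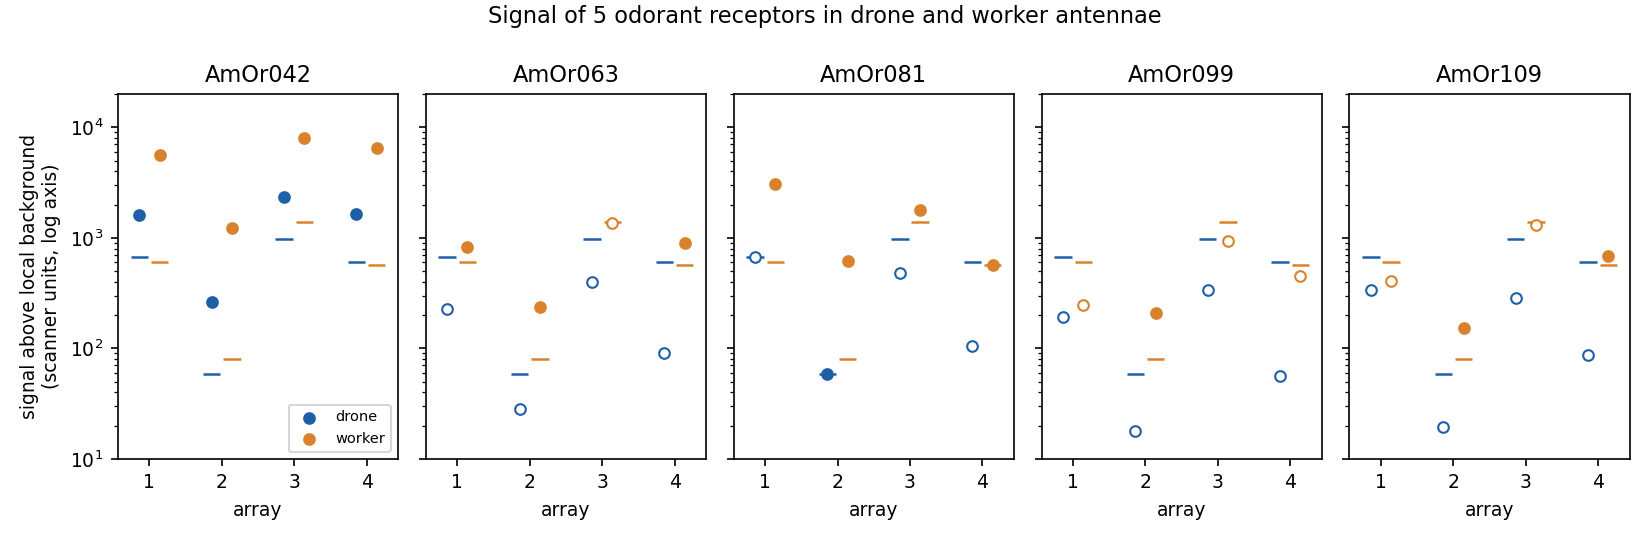
Signal above local background (scanner units, log axis) of the 5 receptors on arrays 1 to 4, drone in blue and worker in orange, each point the mean of 2 spots; horizontal ticks are the negative-control threshold of that sex and array, and open points lie at or below it. AmOr042 is above the ticks in both sexes on all 4 arrays, while AmOr099 has a filled point only for worker on array 2.

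Detection of a dim receptor in worker went with the dye. On arrays 2 and 4, where worker was in Cy3, 92 and 100 of the 168 receptors were above the controls in worker, against 21 and 20 on arrays 1 and 3. The only worker detections of AmOr099 and AmOr109 fell on arrays 2 and 4. AmOr042 and AmOr081 were above the controls in worker under both dye orientations, and AmOr063 on arrays 1, 2 and 4. In drone the corresponding numbers of receptors were 34 and 24 on arrays 1 and 3, with drone in Cy3, and 56 and 16 on arrays 2 and 4. The part of the dye in the detection of these receptors was not tested. For comparison, 24.3% of all genes were above the controls in worker on 4 of 4 arrays, as were 2 of the 5 receptors, and 51.4% were above them in drone on 0 of 4 arrays, as were 3 of the 5. With oligo 4 kept among the controls, AmOr042 in worker on 2 arrays was the only detection left of 14 in worker and 5 in drone over the 5 receptors and 4 arrays.

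The typical gap between duplicate spots was below that of all genes for AmOr042 and AmOr081, and above it for AmOr063, AmOr099 and AmOr109. The gap between the 2 spots of a pair had a median of 0.08 for AmOr081, 0.10 for AmOr042, 0.20 for AmOr099 and AmOr109 and 0.41 for AmOr063 on the log2 scale, against a median of 0.14 over all genes. The widest gaps were 0.997 for AmOr099, 0.46 for AmOr042, 0.45 for AmOr063, 0.44 for AmOr109 and 0.20 for AmOr081.

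**Figure D2:**
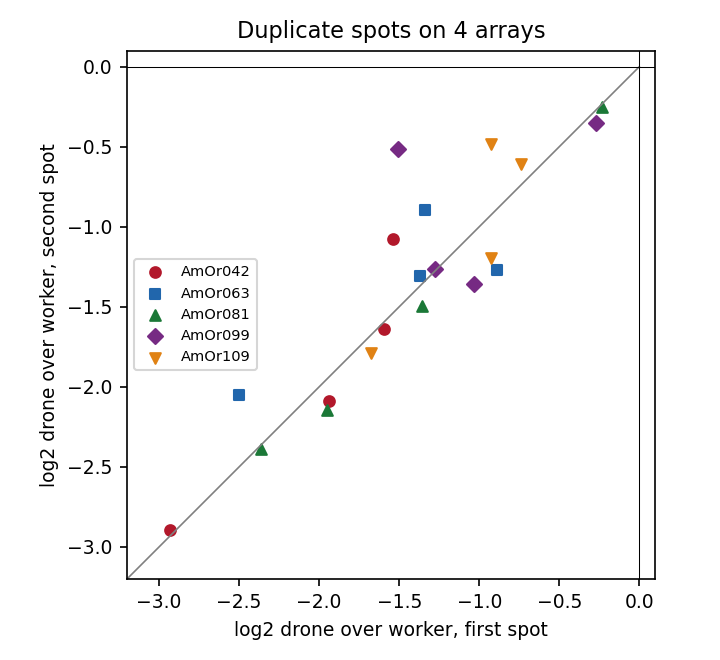
Log2 drone over worker ratio of the first spot (x axis) against the second spot (y axis) for each of the 5 receptors on 4 arrays; the diagonal marks equal values. The points lie below 0, as the choice of the receptors on the ratio of every array largely fixes. The point farthest from the diagonal is AmOr099 on array 2, at -1.51 and -0.51.

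The position of the 5 receptors within each array's receptors varied. For the receptors whose drone signal was at or near the level of the controls, AmOr063, AmOr081, AmOr099 and AmOr109, the log2 ratio is a measured value that carries no exact fold. AmOr063 ran from -2.27 on array 1 to -1.08 on array 4, AmOr099 from -1.27 on array 1 to -0.31 on array 4, and AmOr109 from -1.73 on array 3 to -0.67 on array 4. Ranked from the most worker-shifted ratio, AmOr042 was at place 3, 3, 7 and 1 among 168 receptors on arrays 1 to 4. AmOr081 was at place 1, 2, 5 and 68, and AmOr099 at 8, 6, 9 and 62. On array 4, where 92 of 168 receptors had a negative ratio, AmOr081 and AmOr099 therefore lay among the many receptors near 0. AmOr063 was at place 2, 4, 6 and 9, and AmOr109 at 11, 10, 1 and 29.

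**Figure D3:**
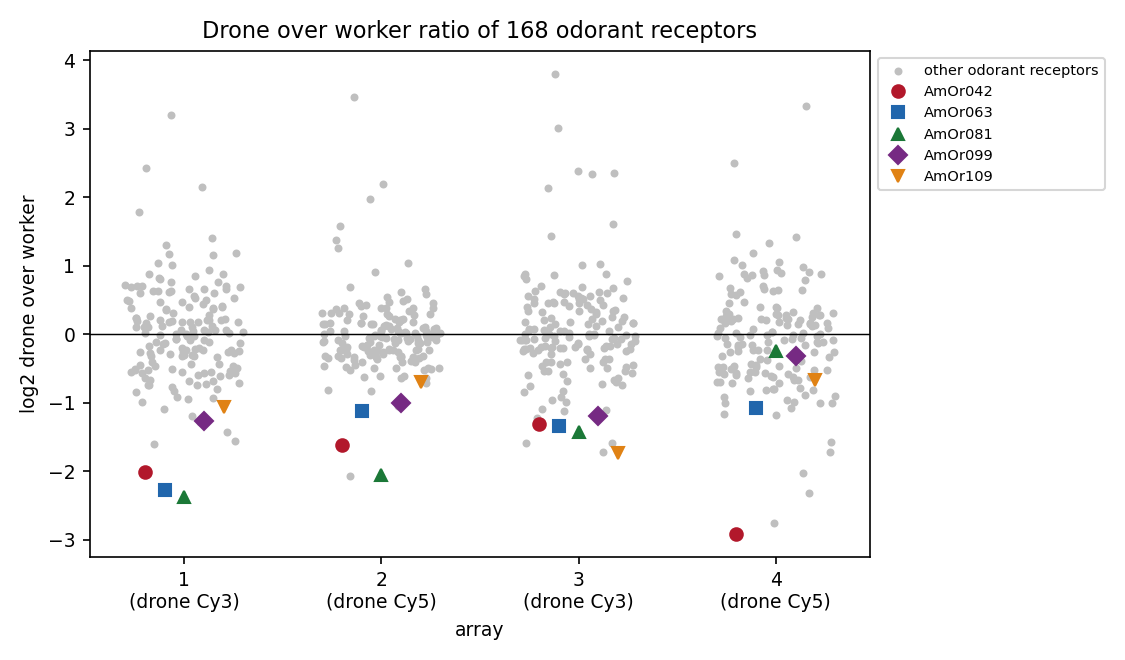
Log2 drone over worker ratio (y axis) of the 168 odorant receptors on each of the 4 arrays (x axis), with the 5 receptors as coloured symbols, set slightly apart from left to right for legibility, and the other 163 in grey. The coloured symbols lie at or near the lower edge on arrays 1 to 3, with AmOr109 at place 11 and 10 on arrays 1 and 2. On array 4 AmOr081 at -0.24, AmOr099 at -0.31 and AmOr109 at -0.67 lie within the grey points.

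After loess, AmOr042 had its largest ratio on array 4, and AmOr063, AmOr081, AmOr099 and AmOr109 their smallest. AmOr063 and AmOr109 were nearly as small on array 2, at -1.12 and -0.70. This order on array 4 was not seen in signal before normalization. There AmOr042 had 6474 in worker against 1641.5 in drone, and AmOr081 570.5 against 106. After loess the log2 drone over worker ratio on array 4 was -2.91 for AmOr042 and -0.24 for AmOr081. The latter carries no exact fold, because the drone signal of AmOr081 there was below its threshold. The part of normalization in this order was not tested. Without array 4 the mean log2 ratio of AmOr042 was -1.65.

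The ratios under the 2 dye orientations are given as a description, with no test, because the receptors were chosen on the ratio of every array. The mean log2 drone over worker ratio of AmOr042 was -1.66 with drone in Cy3 and -2.27 with drone in Cy5, and that of AmOr081 was -1.90 and -1.15. The dye terms of AmOr063, AmOr081, AmOr099 and AmOr109 were all positive, from 0.29 to 0.38, meaning a ratio nearer 0 with drone in Cy5. That of AmOr042 was -0.30, and the moderated standard errors of the 5 dye terms were 0.20 to 0.27.

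The receptor numbered just below and just above each of the 5 was also examined. Of these 10 neighbours, 1 was called higher in drone and 9 were not called (limma). The worker calls make up 7.35% of all genes tested and the drone calls 4.47%. All 5 receptors were worker calls, on the contrast that chose them, so nothing is read from their count. Among the receptors the other worker calls were AmOr149 to AmOr151, so that no neighbour was a worker call follows from the choice and is no finding. AmOr064, next in number to AmOr063, went the other way. Its log2 drone over worker ratio was 1.15, 1.03, 1.61 and 1.18 on arrays 1 to 4, a mean of 1.25 ± 0.17 (adjusted p = 0.00421), with both sexes above the controls on 4 of 4 arrays. AmOr062, on the other side of AmOr063, had 0.24 ± 0.15 (adjusted p = 0.465) and was above the controls on no array in either sex.

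The neighbours of the other receptors had mean log2 ratios nearer 0 than the chosen receptor beside them, as the choice favours, so this is no finding. AmOr041 and AmOr043, beside AmOr042, had -0.01 ± 0.31 and -0.05 ± 0.25. AmOr080 and AmOr082, beside AmOr081, had -0.33 ± 0.18 and -0.13 ± 0.31. AmOr098 and AmOr100 had -0.15 ± 0.24 and -0.26 ± 0.19 beside AmOr099, and AmOr108 and AmOr110 had -0.18 ± 0.30 and -0.26 ± 0.23 beside AmOr109.

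**Figure D4:**
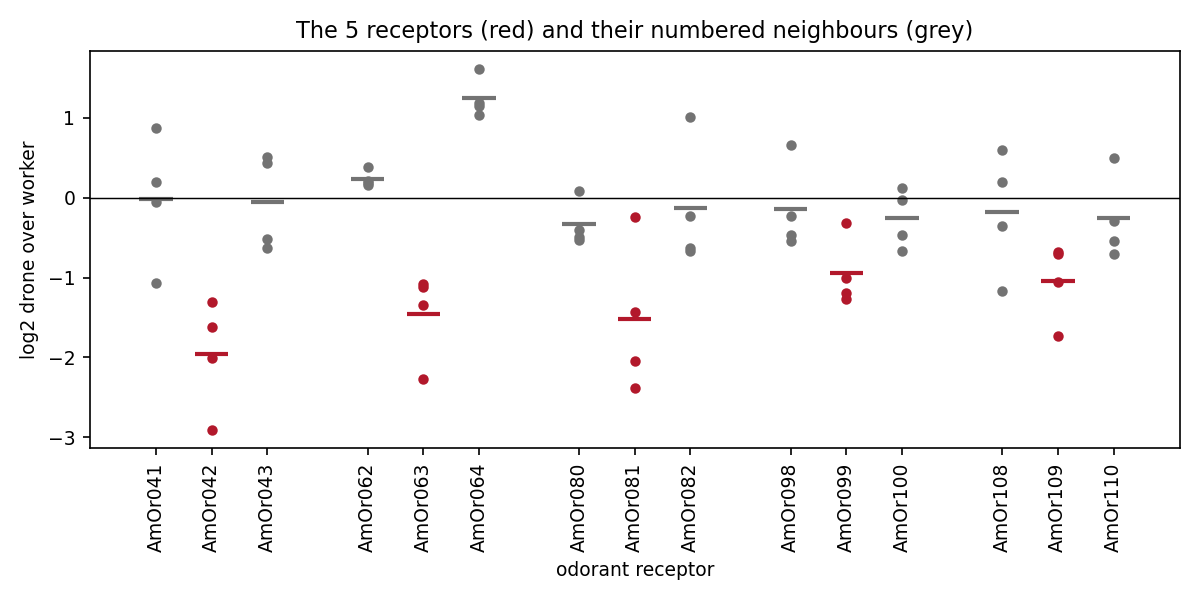
Log2 drone over worker ratio (y axis) of each of the 5 receptors (red) and of the receptors numbered just below and above it (grey); points are the 4 arrays and bars their means. AmOr064 is the only neighbour called, at a mean of 1.25, beside AmOr063 with all 4 arrays below 0.

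The RefSeq gene table of assembly Amel_HAv3.1 held 2 of the 5 receptors by symbol, Or63 and Or109. Its assembly is not the one used to design the array, so no position is given. In that table Or107 lies near Or109, with 1 gene between them. AmOr107 had log2 drone over worker ratios of -0.80, -0.60, 0.55 and 0.21 on arrays 1 to 4 and was not called (mean -0.16 ± 0.26, adjusted p = 0.819), with no drone signal above the controls. AmOr107 therefore did not keep 1 direction across arrays. No receptor symbol stood among the 3 genes on either side of Or63. Those genes and the genes directly beside Or109 carry locus numbers in place of names. They were not matched to genes of the array, so receptors among them cannot be told.

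The genes most like each receptor in sex ratio were found by the root mean square difference of the 4 log2 ratios over all other genes of the array. AmOr151, of the consecutive worker run, was nearest to AmOr042 at a difference of 0.38, followed by AmTspan12, a tetraspanin, at 0.54. Like AmOr042, AmOr151 had its largest ratio on array 4 and its smallest on array 3, at -2.76 and -0.91. AmCyp335B3, a cytochrome P450, was nearest to both AmOr081 (0.41) and AmOr063 (0.46). The second nearest were AmGST7, a glutathione S-transferase, for AmOr063 (0.49) and AmOr063 itself for AmOr081 (0.63).

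AmOr109 and AmOr099 were nearest to receptors that were also close to the controls. AmOr150 was nearest to AmOr109 (0.21), and AmOr105 came next (0.29). For AmOr099 the nearest were AmOr152 (0.23) and AmOr149 (0.36). All 4 of these had no drone signal above the controls on any array and worker signal above them on 2 arrays. AmOr152 and AmOr105 were not called (both adjusted p = 0.0885, limma). Of the 9 genes named as nearest, 6 were odorant receptors, and likeness over 4 arrays is a description only.

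AmOr152 and AmOr105 also mark the edge of the choice. AmOr099 had the smallest mean log2 ratio of the 5 receptors, at -0.95, while AmOr152 and AmOr105, left outside, had -0.90 and -0.80, both with worker the higher on 4 of 4 arrays. Worker was the higher on all 4 arrays for 17.3% of the 168 receptors and 17.6% of all 313 genes. Thus 24 receptors outside the 5 met that condition too.

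Other genes of the olfactory pathway were counted from lists that hold none of the 5. Among the other 163 odorant receptors, limma called 6 in the drone and 3 in the worker direction (adjusted over 313 genes), and their median log2 drone over worker ratio was -0.02, against 0.01 over all genes. The smallest adjusted p in drone belonged to AmOr011, which responds to the main compound of the queen's pheromone (log2 3.45 ± 0.17, adjusted p = 4.07e-05), and the smallest in worker to AmOr151 (log2 -1.83 ± 0.30, adjusted p = 0.00949). The 3 worker calls became 1, 0 and 7 without arrays 1, 2 and 4.

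Of 19 odorant binding proteins, which carry odorants through the fluid around the neurons, 7 were higher in worker and 0 in drone (limma), with 9 and 1 at an unadjusted p under 0.05. Over all genes 7.35% were worker and 4.47% drone calls, and the 7 became 1 under median and 3 under housekeeping centring. The smallest adjusted p belonged to AmOBP11 (log2 -3.43 ± 0.16, adjusted p = 3.63e-05). Of 9 olfactory membrane and signalling genes, namely the co-receptor AmOr002, AmSNMP, the 3 G-protein alpha subunits and the 4 arrestins, 0 were called in either direction, with 2 in drone and 1 in worker at an unadjusted p under 0.05 (limma). The co-receptor itself had a log2 ratio of 0.42 ± 0.16 (adjusted p = 0.174), on the drone side on 4 of 4 arrays, and AmSNMP -0.49 ± 0.18 (adjusted p = 0.173), on the worker side on 4 of 4 arrays (limma).

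The authors' deposited table of log2 ratios, turned to drone over worker, comes from the same arrays and so is no independent support. It had all 5 receptors below 0 on 4 of 4 arrays. In the authors' deposited table AmOr042 had -1.87, -1.54, -1.10 and -2.66 on arrays 1 to 4. The authors' deposited table gave AmOr081 -2.40, -2.38, -1.41 and -0.41, again with its smallest ratio on array 4.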

How the data were processed

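Spot intensities of 4 two-colour arrays were analysed. Per the file headers, the authors deposited unnormalized intensity values of each spot (median and mean) and of its surroundings (median) in the 635 nm (Cy5) and 532 nm (Cy3) channels, with 65535 as the highest value. The deposited files also hold a percent of saturated pixels and a quality score per spot, with -75 for an absent and -50 for a spot not found. The scanner is not given in the sources used here. The authors also deposited a table of log2 ratios per spot, whose normalization is unknown. Set against the scanner ratios under the label-field dyes, it ran as worker over drone on all 4 arrays. Correlations across genes were 0.914 to 0.984 after turning, and column medians were -0.09 to 0.08.

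The analysis used R 4.3.3 with limma 3.58.1. Background was removed from the foreground medians by normexp (offset 50), log ratios were normalized by loess within arrays (control spots at weight 0, absent spots out), and duplicate spots were averaged. Because loess centres the ratios along brightness, it would hide a shift common to most genes. lmFit and eBayes were run on all 313 genes with no filter on low values, two-sided, with Benjamini-Hochberg adjustment and a threshold of 0.05. ± is limma's moderated SE over 4 arrays, with each gene's variance drawn toward that of all genes. The number of arrays limits the precision. A planned test of the dye term, fitted beside the sex term, is given as values without p, because the choice used every array's ratio. The code was tested on simulated data. The 5 receptors, the lists, the rules for named genes (the 2 nearest genes per receptor and the smallest adjusted p per list and direction) and the threshold without oligo 4 were chosen with earlier results of these data known. Numbered neighbours and AmOr107 were added for their number or place, and the edge genes for their values. Alternatives covered background, foreground statistic, centring, single spots, deposited ratios, dyes, controls and left-out arrays.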

Additional observations from a re-analysis of the deposited data

Results flagged for a closer look

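AmOr105, named as the second nearest gene to AmOr109, had a log2 drone over worker ratio of -1.59 on array 3, far from its other 3 arrays (-0.56, -0.48 and -0.55). It was the only 1 of 15 sets of 4 array values examined marked in this way, as chance does for about 1 set in 20, and none of the 5 receptors did.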

How the results depend on the processing

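The log2 ratios of AmOr042 and AmOr081 kept their sign and moved by less than 1 SD between arrays under all settings run except the dyes of the protocol text. Leaving out 1 array gave -2.18 to -1.65 for AmOr042, -1.95 to -1.24 for AmOr081, and bounds of 1.14 to 1.65 for AmOr063 and 1.33 to 3.19 for AmOr081. With the dyes of the protocol text AmOr042 had 0.96 and AmOr081 0.33, worker was the higher on all arrays for 0 of 5 receptors, AmOr063, AmOr099 and AmOr109 were higher in worker on 1 array each, the bounds of AmOr063 and AmOr081 were 0.642 and 0.793, and 0 other receptors in either sex and 0 odorant binding proteins were called. Under the other settings worker was the higher on all arrays for 5 of 5. With oligo 4 kept, an alternative for the bounds added after seeing the data, the bound of AmOr063 was 0.157 and that of AmOr081 0.230, and 0 drone and 2 worker detections remained of 5 and 14. Calls among other receptors, 6 drone and 3 worker, were 3 and 1 under median centring, 1 and 0 under housekeeping centring (where the median over all genes was -0.25) and 2 and 1 without normalization (median -0.10), all without loess; leaving out 1 array gave 4 to 8 and 0 to 7. The 7 worker calls among binding proteins were 1 under median and 3 under housekeeping centring. Limited to the 105 genes above the controls, 1 binding protein and 1 signalling gene were called in drone, AmOBP07 and AmGpAsOlf, named after their values were seen. The cause of these changes was not tested. Slide as a random block was not run, because limma cannot estimate its correlation from 3 slides with a single pair. No paired analysis was possible because each ratio already pairs 2 pools on 1 array. Signal over background limits AmOr063, AmOr081, AmOr099 and AmOr109 in drone, and AmOr099 and AmOr109 in worker as well.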
